A study of Homo sapiens with 18 samples.

Results

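The genes described here are microRNA (miRNA) host genes, the transcripts in which natural miRNAs are embedded. They were chosen by name alone: every row of the deposited gene table whose symbol follows the pattern MIR, a name and HG. This rule took 74 of the 60612 rows. The name comes from the gene nomenclature and not from any measured value. In the gene annotation (GENCODE release 29, human build GRCh38), 73 of the 74 had a position, and 56 of these held at least 1 annotated miRNA hairpin on their own strand. Together they held 96 hairpins, of which 62 lay in introns, 30 in exons and 4 across an exon edge.

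The libraries were made from polyadenylated RNA of human cell lines after plasmid transfection. The lines used here were HepG2, which derives from a liver tumour, and SH-SY5Y, which derives from a neuroblastoma. In each line, 3 libraries came from cells with a control plasmid that encodes the green fluorescent protein mNeonGreen, and 3 from cells with a plasmid for mNeonGreen and an artificial miRNA named EXACT1. All 12 libraries therefore carried mNeonGreen. HepG2 cells were transfected with a lipid reagent at 100 ng plasmid per well and SH-SY5Y cells by nucleofection, so line and transfection method cannot be told apart. Each line is a single cancer line and stands for no tissue. The labels do not say whether the 3 libraries of a group came from separate cultures, so the spread that the p-values rest on may be technical only. In bulk RNA, fewer cells with a transcript and less of it per cell cannot be told apart.

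A primary miRNA transcript is cut in the nucleus by DROSHA with DGCR8, which frees a hairpin that XPO5 exports and DICER1 trims to the mature miRNA. A miRNA recognises its targets mainly through its seed, the stretch from base 2 to base 8. Hosts can carry their hairpins in introns, where splicing and cutting can both proceed, or in exons, where cutting destroys the host transcript. The reads measure the polyadenylated host transcript and not the mature miRNA.

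The sequences below are mature miRNAs, from RefSeq on GRCh38.p14, of hosts that separated the lines. They are shown because hosts of the same seed can be read side by side. Capitals mark the seed. The first block comes from hosts that were higher in SH-SY5Y. The let-7 seed GAGGUAG is carried by let-7a-5p (hairpins in MIR100HG and MIRLET7BHG), let-7b-5p (MIRLET7BHG), let-7c-5p (MIR99AHG) and let-7i-5p (MIRLET7IHG). The seed ACCCGUA is carried by miR-100-5p (MIR100HG) and miR-99a-5p (MIR99AHG). The others are miR-125b-5p (MIR100HG), miR-137-3p (MIR137HG), miR-181a-5p (MIR181A2HG), miR-17-5p (MIR17HG) and miR-600 (MIR600HG).
hsa-let-7a-5p: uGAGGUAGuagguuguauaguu
hsa-let-7b-5p: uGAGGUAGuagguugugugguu
hsa-let-7c-5p: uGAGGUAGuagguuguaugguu
hsa-let-7i-5p: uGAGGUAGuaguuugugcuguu
hsa-miR-100-5p: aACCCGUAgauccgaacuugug
hsa-miR-99a-5p: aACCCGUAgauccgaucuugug
hsa-miR-125b-5p: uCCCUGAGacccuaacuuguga
hsa-miR-137-3p: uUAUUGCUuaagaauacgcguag
hsa-miR-181a-5p: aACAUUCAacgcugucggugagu
hsa-miR-17-5p: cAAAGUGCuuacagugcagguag
hsa-miR-600: aCUUACAGacaagagccuugcuc

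The second block comes from hosts that were higher in HepG2. It gives miR-924 (MIR924HG), miR-193b-3p and miR-365a-3p (both MIR193BHG), miR-34a-5p (MIR34AHG) and miR-210-3p (MIR210HG). The libraries of the lines overlapped for MIR210HG. No seed was shared between the blocks.
hsa-miR-924: aGAGUCUUgugaugucuugc
hsa-miR-193b-3p: aACUGGCCcucaaagucccgcu
hsa-miR-365a-3p: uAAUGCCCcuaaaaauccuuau
hsa-miR-34a-5p: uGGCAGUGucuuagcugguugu
hsa-miR-210-3p: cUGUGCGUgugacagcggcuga

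Levels are given as CPM, the count of a gene scaled to a common library total. The 12 libraries held between 66056962 and 77100150 counts, so 3 counts in a library, the limit that a count of 0 allows, correspond to between 0.0389 and 0.0454 CPM. The lines carried the markers of their origin. Of 12 hepatocyte genes, 12 reached 1 CPM in HepG2 (median 5538 CPM) and 9 in SH-SY5Y (median 12.3 CPM). Of 12 sympathetic neuroblast genes, 3 reached it in HepG2 (median 0.284 CPM) and 11 in SH-SY5Y (median 333 CPM). Stromal genes also reached 1 CPM in SH-SY5Y, 7 of 8 against 1 of 8 in HepG2, with a summed level of 227 to 441 CPM against 6.30 to 17.3 CPM; POSTN was at 0 in both lines. Their part in the host gene results was not tested. The 6 libraries of the other line in the series, HEK293A, were left out because their values did not match the gene names of their rows. Above 500 counts in every one of the 12 libraries lay 6574 genes, of which 2555 (38.9%) were at 0 in all 6 HEK293A libraries.

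In both lines 1 library stood apart from its group, and the results that moved most with them are given with and without them. HepG2 EXACT1 replicate 1 had a mean correlation to its group of 0.938, and ribosomal protein genes took 9.83% of its counts, against 4.64% to 4.79% in the other 5 HepG2 libraries. SH-SY5Y control replicate 2 had a correlation of 0.939 and a ribosomal protein share of 13.0%, against 5.47% to 5.92% in the other 5. The cause was not tested.

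More of these hosts reached 1 CPM in SH-SY5Y than in HepG2, and their summed level was higher there. In HepG2, 11 of the 74 had a mean of at least 1 CPM over 6 libraries (14.9%, against 21.4% of all genes in the table). In SH-SY5Y, 19 did (25.7%, against 24.5% of all genes). Of the 22 hosts at this level in either line, 8 reached it in both, 3 in HepG2 only and 11 in SH-SY5Y only. The summed level of all 74 was 42.9 to 57.0 CPM in the HepG2 libraries and 121 to 159 CPM in the SH-SY5Y libraries, with no overlap. Scaling the libraries by the trimmed mean of M-values (TMM, which corrects for a few genes that take many counts) raised the HepG2 count to 15 and kept the SH-SY5Y count at 19.

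The other 52 hosts stayed below 1 CPM in both lines. Of these, 20 had no count in any of the 12 libraries and 32 had counts in at least 1 library. Within one library a host level depends on transcript length, so hosts were ordered by CPM per kilobase of annotated exon. In HepG2 the order began with MIR210HG (3.46 ± 2.05 CPM per kilobase, SD, n = 6), MIR1915HG (1.86 ± 0.28), MIR34AHG (1.28 ± 0.33), MIR4453HG (1.22 ± 0.55) and MIR924HG (1.08 ± 0.33). Each of these differed from its neighbour in the order by less than the larger SD, except MIR1915HG and MIR34AHG. In SH-SY5Y it began with MIR1915HG (4.57 ± 0.81), MIR600HG (3.87 ± 0.65), MIR4453HG (3.13 ± 1.09), MIR181A2HG (2.00 ± 0.68) and MIR137HG (1.93 ± 0.71). There the neighbours differed by less than the larger SD, except MIR4453HG and MIR181A2HG, whose gap was slightly larger.

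The lines were compared in 1 edgeR quasi-likelihood fit of the 12 libraries with TMM scaling. Calls were made at an adjusted p (Benjamini-Hochberg over all 22009 genes tested) below 0.05. Of the 74 hosts, 34 had enough counts to be tested. Of these, 24 were called, against 64.7% of all genes tested, and 27 had an unadjusted p under 0.05, against 67.7%. By direction, 9 were called higher in HepG2, where 28.5% of all genes tested were called higher, and 15 were called higher in SH-SY5Y, where 36.3% were. The median log2 fold change, HepG2 over SH-SY5Y, was -1.68 over the tested hosts and -0.25 over all genes tested. Setting the 6 hosts at 0 in one line to their lower bound left the host median at -1.68. That step could not move it, because those hosts stay on the same side of the median. In 5 of the 34 tested hosts all HepG2 libraries lay above all SH-SY5Y libraries (14.3% of all genes tested did), and in 17 all SH-SY5Y libraries lay above (37.6% of all genes tested did). With libraries scaled to their totals instead of TMM, the median of all genes moved by -0.80 and the host calls became 8 higher in HepG2 and 25 higher in SH-SY5Y. The share of calls higher in HepG2 then fell from 44.0% to 26.3% over all genes and from 37.5% to 24.2% over the hosts. Of the 24 called hosts, 14 shared no exon bases with another gene, 4 shared them with a gene on the same strand and 7 with a gene on the opposite strand, MIRLET7BHG with both. Whether the counting used the strand is not given in the sources used here, so the counts of hosts that share exon bases are uncertain.

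Of the hosts of let-7 with miR-99, miR-100 or miR-125, those called were all higher in SH-SY5Y. These miRNAs are known for restraining growth and for marking differentiated cells. MIR100HG (chromosome 11, 122028327 to 122556721, minus strand) carries miR-100, let-7a-2 and miR-125b-1 in its introns, with mature miR-100-5p at chr11:122152275-122152296, let-7a-5p at chr11:122146568-122146589 and miR-125b-5p at chr11:122099809-122099830. In SH-SY5Y it stood at 22, 23.8 and 23.3 CPM with EXACT1 and at 24.6, 11.2 and 21.8 CPM with control. In HepG2 it had 11 counts over 6 libraries, and the highest library stood at 0.0542 CPM. Only SH-SY5Y control replicate 2 lay away from the rest, and the lines did not overlap. The log2 fold change was -8.91 (SE 0.62, edgeR adjusted p = 4.35e-07), and -10.91 without HepG2 EXACT1 replicate 2, which held 4 of the 11 HepG2 counts. MIR100HG shares exon bases with BLID and AP000755.1 on the same strand.

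MIR99AHG (chromosome 21, 15928296 to 16645065, plus strand) carries miR-99a and let-7c in an intron, with miR-99a-5p at chr21:16539101-16539122 and let-7c-5p at chr21:16539838-16539859. It stood at 8.49, 12.1 and 15.9 CPM with EXACT1 and at 6.64, 4.98 and 14.5 CPM with control in SH-SY5Y. It had 8 counts over the 6 HepG2 libraries, with at most 0.0534 CPM in one. The SH-SY5Y libraries were spread over a wide range in both plasmid groups, and none came near HepG2 (log2 fold change -8.27, SE 0.79, edgeR adjusted p = 4.43e-06). It was -10.27 without HepG2 EXACT1 replicate 2 and -10.22 without HepG2 control replicate 2, the libraries that held the HepG2 counts. MIR99AHG shares no exon bases with another gene.

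MIRLET7BHG (chromosome 22, 46053869 to 46113928, plus strand) carries let-7a-3 and let-7b in its exons, with let-7b-5p at chr22:46113691-46113712. In SH-SY5Y it stood at 3.70, 2.23 and 3.26 CPM with EXACT1 and at 3.38, 7.89 and 2.22 CPM with control, with control replicate 2 the highest. In HepG2 all 26 of its counts came from EXACT1 replicate 1 (0.367 CPM), the library that stood apart, and the other 5 were at 0. The log2 fold change was -7.31 (SE 1.45, edgeR adjusted p = 0.00178), -10.85 without that library and -10.39 without both libraries that stood apart. With the EXACT1 libraries alone it was -3.56 and the host was not called (edgeR adjusted p = 0.0926, with a range of 9.46e-09 to 0.0926 over 23 alternatives). It shares exon bases with PRR34-AS1 on the same strand and PRR34 on the other.

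MIRLET7IHG (chromosome 12, 62602752 to 62622213, plus strand), the host of let-7i in an intron (let-7i-5p at chr12:62603691-62603712), ran from 1.83 to 2.81 CPM in SH-SY5Y (median 2.45) and from 0 to 0.415 CPM in HepG2 (median 0.115). The lines did not overlap (log2 fold change -3.27, SE 0.71, edgeR adjusted p = 0.00198, and -4.07 without HepG2 EXACT1 replicate 3, the highest of that line). MIRLET7A1HG was the one member of the let-7 list that was not called. It ran from 0.757 to 2.66 CPM in SH-SY5Y and from 0.212 to 1.22 CPM in HepG2, and the lines overlapped (log2 fold change -0.41, 95% interval -1.13 to 0.30, edgeR adjusted p = 0.286). On library totals it was called higher in SH-SY5Y (-1.20). The list of let-7, miR-99, miR-100 and miR-125 hosts held 4 genes, MIRLET7IHG not among them. Of these, 4 reached a mean of 1 CPM on library totals in SH-SY5Y and 0 in HepG2. MIRLET7A1HG came close in HepG2, and TMM scaling raises HepG2 levels, so for this host the 0 depends on the scaling. All 4 were tested and 3 were called, all higher in SH-SY5Y, where 36.3% of all genes tested were called higher.

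Seeds were read only for hosts with an annotated hairpin inside the gene on the same strand, and MIRLET7A1HG and MIR4458HG were not among them. Hosts on 1 chromosome were also left out of this reading, so the counts may not cover every host with a hairpin. Of the hosts read, 5 carried a miRNA with the let-7 seed GAGGUAG. Of these, 4 reached 1 CPM in SH-SY5Y and 0 in HepG2. The fifth, MIR4500HG, had 7 counts in SH-SY5Y and 0 in HepG2. Both hosts with the seed ACCCGUA reached 1 CPM in SH-SY5Y and neither did in HepG2. The seed AAUGCCC of miR-365 had 2 hosts, of which MIR193BHG reached 1 CPM in HepG2 and MIR365BHG had no count in any library. The seed ACAUUCA of miR-181 had 2 hosts, of which MIR181A2HG reached 1 CPM in SH-SY5Y and MIR181A1HG had no count. The seed AUUGCAC is shared by miR-92a-3p in MIR17HG and miR-367-3p in MIR302CHG, and MIR17HG alone reached 1 CPM, in SH-SY5Y. These are counts of hosts and say nothing about mature miRNA levels.

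Among hosts of miRNAs tied to a tissue, those of the brain-linked miR-137 and of miR-181a were higher in SH-SY5Y, and the host of the liver miRNA miR-122 had few counts in HepG2. MIR137HG (chromosome 1, 97933474 to 98049863, minus strand) carries miR-137, a miRNA known from neurons, in an exon (miR-137-3p at chr1:98046091-98046113). In SH-SY5Y it stood at 15.3, 16.9 and 15.4 CPM with EXACT1 and at 12.1, 4.39 and 18.7 CPM with control. In HepG2 it had 4 counts, all in EXACT1 replicate 2. The low value of SH-SY5Y control replicate 2 still lay far above every HepG2 library (log2 fold change -10.59, SE 0.79, edgeR adjusted p = 3.32e-06). Without HepG2 EXACT1 replicate 2 it was -12.60. It shares exon bases with DPYD on the same strand.

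MIR181A2HG (chromosome 9, 124658467 to 124698631, plus strand), a host of miR-181a in an intron (miR-181a-5p at chr9:124692480-124692502), ran from 0.665 to 2.04 CPM in SH-SY5Y (median 1.27). In HepG2 it had 3 counts, all in EXACT1 replicate 1, the library that stood apart, so the ratio of SH-SY5Y to HepG2 was 196 with an exact 95% counting interval of 66.8 to 954 (edgeR log2 fold change -7.39, adjusted p = 0.000137). Without that library the log2 fold change was -9.32, with no HepG2 count left. Such intervals cover counting error only. MIR142HG, the host of the blood cell miRNA miR-142, had 81 counts in HepG2 and 2 in SH-SY5Y (ratio 38.5, counting interval 10.3 to 324, edgeR adjusted p = 0.000688). Of the 8 blood and immune marker genes, 2 reached 1 CPM in HepG2 (summed level 7.07 to 15.5 CPM, HBB and SPI1 at 0) and 1 in SH-SY5Y (2.65 to 3.30 CPM, with HBB and PTPRC among those at 0). Their part in this was not tested.

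MIR122HG, the host of the liver miRNA miR-122, had 11 counts in HepG2 (3 in EXACT1 replicate 3 and 8 in control replicate 3) and 0 in SH-SY5Y, and was too low to test. MIR302CHG, whose miRNAs are known from pluripotent cells, had 9 counts in HepG2 and 21 in SH-SY5Y. MIR205HG, MIR200CHG, MIR31HG and MIR181A1HG had no count in any library. Of the 13 hosts in the tissue-linked list, 8 had no count in any library, 3 could be tested, and these 3 were the called MIR137HG, MIR181A2HG and MIR142HG. Of all genes tested, 64.7% were called.

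Of the hosts grouped here under stress, hypoxia, p53 responses and growth restraint, 4 were called higher in HepG2 and 2 higher in SH-SY5Y. All 8 hosts of this list were tested. Of all genes tested, 28.5% were called higher in HepG2 and 36.3% higher in SH-SY5Y. MIR34AHG (chromosome 1, 9148011 to 9198906, minus strand) carries miR-34a, a direct target of p53, in an exon (miR-34a-5p at chr1:9151735-9151756). In HepG2 it stood at 6.69, 10.9 and 12.1 CPM with EXACT1 and at 14.5, 13.4 and 9.17 CPM with control. In SH-SY5Y it stood at 4.88, 3.43 and 5.26 CPM with EXACT1 and at 0.283, 1.76 and 3.36 CPM with control. The lowest HepG2 library was above the highest SH-SY5Y library, though by little (log2 fold change 2.73, SE 0.47, edgeR adjusted p = 0.000375). It shares exon bases with LNCTAM34A on the opposite strand.

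MIR193BHG (chromosome 16, 14301389 to 14331067, plus strand) carries miR-193b (miR-193b-3p at chr16:14304017-14304038) and miR-365a (miR-365a-3p at chr16:14309340-14309361) in its introns. In HepG2 it varied little, at 4.94, 4.54 and 5.21 CPM with EXACT1 and at 4.46, 4.35 and 4.19 CPM with control. In SH-SY5Y it ran from 0.127 to 0.455 CPM (median 0.391). The log2 fold change was 4.46 (SE 0.36, edgeR adjusted p = 1.05e-06), and it shares no exon bases with another gene.

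MIR210HG (chromosome 11, 565660 to 568457, minus strand) carries miR-210, which hypoxia induces, in an intron (miR-210-3p at chr11:568112-568133). In HepG2 it stood at 17.5, 5.05 and 6.47 CPM with EXACT1 and at 7.50, 6.62 and 4.97 CPM with control. In SH-SY5Y it stood at 2.35, 2.74 and 1.67 CPM with EXACT1 and at 3.07, 6.04 and 2.23 CPM with control. The highest value of each line came from the library that stood apart, and the SH-SY5Y one made the lines overlap. The log2 fold change was 2.26 (SE 0.46, edgeR adjusted p = 0.00132) and 2.11 (SE 0.21) without both libraries. With the control libraries alone it was 1.30 and not called (edgeR adjusted p = 0.0812, with a range of 5.04e-07 to 0.0812 over 23 alternatives).

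MIR23AHG (chromosome 19, 13823880 to 13842928, minus strand) carries the miR-23a, miR-27a and miR-24-2 cluster in an exon and was higher in SH-SY5Y. There it stood at 5.22, 5.60 and 7.69 CPM with EXACT1 and at 9.11, 16.4 and 5.08 CPM with control, against 3.60, 0.433 and 1.53 CPM and 1.58, 0.907 and 0.691 CPM in HepG2. The lines did not overlap (log2 fold change -1.66, SE 0.56, edgeR adjusted p = 0.022). The highest value of each line came from the library that stood apart, and the log2 fold change was -2.30 (SE 0.48) without HepG2 EXACT1 replicate 1 and -1.90 (SE 0.38) without both. The call was lost without HepG2 control replicate 3 (log2 fold change -1.54, edgeR adjusted p = 0.0521) and with the EXACT1 libraries alone (-0.71, adjusted p = 0.474), with a range of 3.01e-05 to 0.474 over 23 alternatives. It shares exon bases with ZSWIM4 on the opposite strand.

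MIR22HG, whose miRNA miR-22 restrains growth, stood at nearly the same CPM in both lines, 1.78 ± 0.36 in HepG2 and 1.45 ± 0.57 in SH-SY5Y (SD, n = 6), and the lines overlapped. Its call as higher in HepG2 (log2 fold change 1.11, SE 0.30, edgeR adjusted p = 0.00681) came with TMM scaling. On library totals the log2 fold change was 0.30 and the host was not called (edgeR adjusted p = 0.393), nor was it called from the control or the EXACT1 libraries alone (adjusted p = 0.0688 and 0.07). Over 23 alternatives the adjusted p ran from 0.00037 to 0.393.

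MIR503HG had no count in HepG2 and 10 to 49 counts in each SH-SY5Y library (0.151 to 0.701 CPM), at least 11.5-fold higher in SH-SY5Y when HepG2 is set at 3 counts in each library (edgeR adjusted p = 0.000198). MIR497HG, host of miR-195 and miR-497, ran from 2.62 to 7.08 CPM in SH-SY5Y and from 0.04 to 3.06 CPM in HepG2 and was not called (log2 fold change -1.43, SE 0.86, edgeR adjusted p = 0.169). The highest library in each line was again the one that stood apart, and without both it was called higher in SH-SY5Y (-2.49, SE 0.62), as it was on library totals (-2.33). MIR29B2CHG just missed the threshold (log2 fold change -1.31, SE 0.55, edgeR adjusted p = 0.0547). It was called, higher in SH-SY5Y, under 9 alternatives, among them DESeq2, limma voom and the fit without SH-SY5Y control replicate 2 (-1.56, adjusted p = 0.0173, with a range of 0.00529 to 0.884 over 22 alternatives). Over this list of 8 hosts, 5 reached 1 CPM in each line. The 4 higher in HepG2 were MIR22HG, MIR34AHG, MIR193BHG and MIR210HG.

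Of the 3 hosts of growth-promoting miRNAs, 1 was called higher in SH-SY5Y, 1 higher in HepG2, and 1 was too low to test. Of all genes tested, 64.7% were called. MIR17HG (chromosome 13, 91347820 to 91354579, plus strand) carries the miR-17, miR-18a, miR-19a, miR-20a, miR-19b-1 and miR-92a-1 hairpins in an exon and is a known target of MYC family factors. Its miR-17-5p lies at chr13:91350618-91350640. It ran from 1.17 to 4.45 CPM in SH-SY5Y (median 2.40) and from 0.169 to 0.512 CPM in HepG2 (median 0.293), with no overlap (log2 fold change -2.23, SE 0.30, edgeR adjusted p = 5.64e-05). MIR222HG, host of miR-221 and miR-222, was low, with 4 to 30 counts in each HepG2 library and 4 counts in all of SH-SY5Y. It was called higher in HepG2 (log2 fold change 5.94, SE 1.13, edgeR adjusted p = 0.00145), although the single SH-SY5Y library with counts, control replicate 1, overlapped the HepG2 range. Without it the log2 fold change was 7.52. MIR155HG had 11 counts, all in HepG2 control replicate 3, and could not be tested.

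Among the other hosts, MIR924HG (chromosome 18, 39206924 to 39800318, minus strand) had the largest fitted fold change towards HepG2 of those with counts in both lines. It carries miR-924 (chr18:39622153-39622172) and miR-5583-2 in introns. It stood at 1.31, 2.69 and 3.72 CPM with EXACT1 and at 3.75, 3.12 and 3.40 CPM with control in HepG2, and had 8 counts over the 6 SH-SY5Y libraries. HepG2 EXACT1 replicate 1 was the lowest of its line, and the lines did not overlap (log2 fold change 7.94, SE 0.79, edgeR adjusted p = 6.29e-06). Without either of the SH-SY5Y libraries with counts, EXACT1 replicate 1 or control replicate 3, it was 9.50 or 9.56. It shares exon bases with AC011139.1 on the opposite strand.

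MIR600HG (chromosome 9, 123109494 to 123115477, minus strand), with miR-600 in an exon (chr9:123111561-123111583), had the highest mean CPM of all 74 hosts, in SH-SY5Y. It ran from 16.0 to 26.0 CPM in SH-SY5Y (median 24.8) and from 1.86 to 3.64 CPM in HepG2 (median 3.09), with no overlap (log2 fold change -2.17, SE 0.16, edgeR adjusted p = 5.48e-07). It shares exon bases with STRBP on the same strand, so part of its counts may belong to that gene. MIR4458HG ran from 5.00 to 8.24 CPM in SH-SY5Y and from 0.636 to 2.19 CPM in HepG2 (log2 fold change -1.69, SE 0.27, edgeR adjusted p = 0.00023). MIR1915HG was abundant in both lines, 12.6 to 20.9 CPM in SH-SY5Y and 6.05 to 8.43 CPM in HepG2. Although its libraries did not overlap, it was not called with TMM scaling (log2 fold change -0.51, SE 0.22, edgeR adjusted p = 0.057). MIR4733HG and MIR3936HG likewise did not overlap and were not called (-2.42 and -0.41). Without both libraries that stood apart, all 3 were called higher in SH-SY5Y (MIR1915HG -0.40, MIR4733HG -5.03 and MIR3936HG -0.65), as they were on library totals (-1.30, -3.27 and -1.25). MIR4453HG (-0.56) was called under the same settings (-0.49 and -1.33), although its lines overlapped.

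MIR3142HG was singled out after its values were seen. In HepG2 it had 86, 0 and 227 counts with EXACT1 and 0, 0 and 293 counts with control, so it was all or none between libraries of the same group. It had no count in SH-SY5Y (edgeR adjusted p = 0.0183), as in 3 of the 6 HepG2 libraries, and no fold is given. Without both libraries that stood apart it was no longer called. The 5 remaining called hosts had low counts. MIR4713HG was called higher in HepG2, at least 4.60-fold. MIR2052HG (ratio 240, counting interval 42.6 to 9508), MIR3147HG (at least 6.77-fold), MIR3681HG (at least 6.53-fold) and MIR663AHG (at least 6.10-fold) were called higher in SH-SY5Y.

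**Figure D1:**
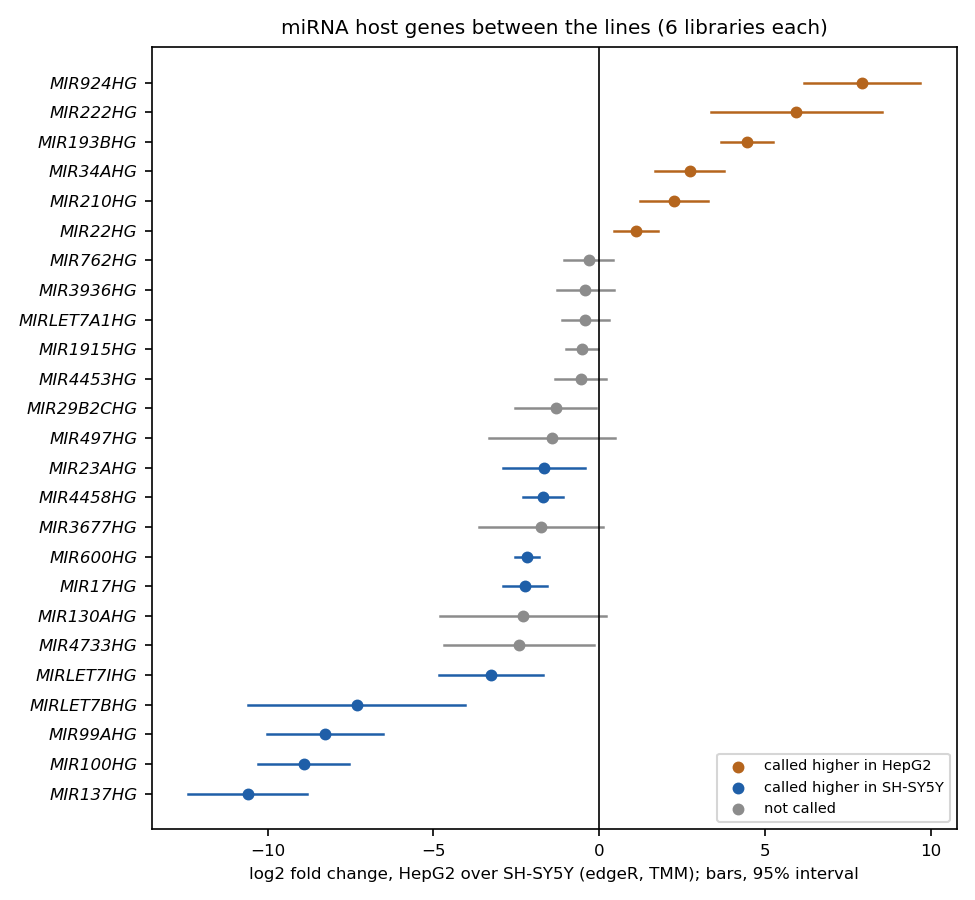
Log2 fold change of tested host genes, HepG2 over SH-SY5Y, from the edgeR fit of 12 libraries with TMM scaling. Points are estimates and bars 95% intervals, for hosts with more than 3 counts in each line; brown marks hosts called higher in HepG2, blue hosts called higher in SH-SY5Y and grey hosts not called. MIR924HG lies at 7.94 and MIR137HG at -10.59, and the grey hosts between them have intervals that reach or come close to 0.

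Hosts outside the naming rule were counted from lists of well-known ones. Of 14 other noncoding hosts, 12 held an annotated hairpin on their own strand and 10 could be tested. Of those tested, 2 were called higher in HepG2 and 7 higher in SH-SY5Y. Of all genes tested, 28.5% were called higher in HepG2 and 36.3% higher in SH-SY5Y. The counts of this list were the same on library totals. The hosts of miR-9, a miRNA known from neural progenitors, were MIR9-1HG (7.49 ± 1.77 CPM in SH-SY5Y and 0.0786 ± 0.106 CPM in HepG2, SD, n = 6) and MIR9-3HG (14.2 ± 1.41 and 0.0769 ± 0.0325 CPM). MIR124-1HG, a host of the neuronal miR-124, stood at 18.1 ± 3.81 and 0.0177 ± 0.0274 CPM. H19, host of miR-675, had 405 ± 220 CPM in SH-SY5Y against 2.56 ± 1.24 CPM in HepG2. MIR4435-2HG went the other way, with 32.8 ± 12.6 CPM in HepG2 against 1.24 ± 1.2 CPM in SH-SY5Y.

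Of 38 protein-coding hosts, 33 held an annotated hairpin on their own strand and 36 could be tested. Of those tested, 15 were called higher in HepG2 and 10 higher in SH-SY5Y. Of all genes tested, 28.5% were called higher in HepG2 and 36.3% higher in SH-SY5Y. On library totals the list gave 8 and 17, so its balance depended on the scaling. MCM7, a replication helicase gene that hosts miR-25 and miR-106b, had 943 ± 217 CPM in SH-SY5Y against 114 ± 15.6 CPM in HepG2. SREBF2, a sterol regulator that hosts miR-33a, had 347 ± 15.8 CPM in HepG2 against 150 ± 13.0 CPM in SH-SY5Y. Of 10 genes of miRNA processing, all tested, DROSHA, DGCR8 and XPO5 were called higher in SH-SY5Y and PRKRA higher in HepG2. These are 3 and 1 of 10, against 36.3% and 28.5% of all genes tested. On library totals 6 of the 10 were called higher in SH-SY5Y and 0 higher in HepG2.

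The comparison of EXACT1 with control within a line asks whether transcripts of the cell differ when an artificial miRNA is made from a plasmid. No host gene was called in either line. In simulated data this test called 18 of 100 changes of 4-fold in HepG2 and 4 of 100 in SH-SY5Y. A lack of calls therefore does not show that a host was unchanged. In HepG2, 20 hosts were tested and 0 were called, as were 0% of all 17139 genes tested. None of the 20 had an unadjusted p under 0.05, against 0.957% of all genes. DESeq2 and limma voom with sample weights also called 0 hosts. The median log2 fold change, EXACT1 over control, was 0.04 over the hosts and 0.00 over all genes. With 3 libraries a group, the 95% interval lay within 1 log2 unit of 0 for 4 of the 20, so a change of 2-fold could not be set aside for the other 16.

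The 5 hosts with the smallest p in HepG2 did not pass (edgeR adjusted p = 0.792 each). MIRLET7A1HG stood at 0.212, 0.709 and 0.804 CPM with EXACT1 and at 1.22, 0.961 and 1.10 CPM with control. Its groups did not overlap (4.6% of all genes tested were lower with EXACT1 in this way), and the log2 fold change was -0.89 (SE 0.47). Without EXACT1 replicate 1 it was -0.55 (95% interval -1.33 to 0.23). MIR193BHG was the 1 host with all EXACT1 libraries above all control libraries (4.89% of all genes), at 4.90 ± 0.34 against 4.33 ± 0.14 CPM (SD, n = 3) and a log2 fold change of 0.29 (SE 0.25). MIR22HG had a log2 fold change of 0.42 (95% interval -0.28 to 1.13).

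MIR210HG and MIR23AHG had log2 fold changes of 0.80 (SE 0.59) and 1.01 (SE 0.82) in HepG2, and both rested on EXACT1 replicate 1. MIR210HG stood at 17.5 CPM there and at 5.05 and 6.47 CPM in the other EXACT1 libraries. Without it the values were -0.17 (95% interval -0.63 to 0.30) and -0.14 (-1.33 to 1.04). Across the hosts, leaving out that library brought 8 of 21 intervals within 1 log2 unit of 0, again with 0 called. MIR34AHG, host of the p53 target miR-34a, had a log2 fold change of -0.25 (95% interval -0.93 to 0.42), and -0.12 (-0.53 to 0.29) without it.

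In SH-SY5Y, 29 hosts were tested and 0 were called by edgeR, DESeq2 or limma voom, as were 0% of all 19853 genes tested by edgeR. A single host had an unadjusted p under 0.05, against 1.01% of all genes. The median log2 fold change was 0.08 over the hosts and -0.01 over all genes. The 95% interval lay within 1 log2 unit of 0 for 5 of the 29, and for 14 of 31 without control replicate 2.

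MIR2052HG had the smallest p in SH-SY5Y and did not pass (log2 fold change 1.61, SE 0.63, edgeR adjusted p = 0.796). It stood at 0.596, 1.2 and 0.658 CPM with EXACT1 and at 0.466, 0.151 and 0.124 CPM with control. Together with MIR34AHG it was one of 2 hosts with all EXACT1 libraries above all control libraries (5.25% of all genes), and MIR3677HG was the 1 host with all below (2.83% of all genes). For MIR34AHG the EXACT1 mean was 4.52 ± 0.96 CPM and the control mean 1.80 ± 1.54 CPM (SD, n = 3). The control libraries were spread from 0.283 to 3.36 CPM, and the log2 fold change of 1.16 (95% interval -0.71 to 3.02) did not differ from 0 beyond that spread. It was 0.66 without control replicate 1 and 1.77 without control replicate 3. MIR17HG had a log2 fold change of 0.74 (95% interval -0.13 to 1.61).

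MIR210HG and MIR23AHG had log2 fold changes of -1.0 (SE 0.54) and -0.99 (SE 0.54) in SH-SY5Y, the opposite sign to HepG2, and MIR4733HG of -1.38 (SE 0.87). All 3 rested on control replicate 2. Without it they were -0.24 (95% interval -0.95 to 0.47), -0.21 (-0.84 to 0.42) and 0.27 (-0.83 to 1.37). For the hosts with the largest folds towards SH-SY5Y, the values without that library were -0.02 (-0.27 to 0.23) for MIR100HG and 0.04 (-0.38 to 0.45) for MIR137HG. For MIR99AHG it was 0.19 (-0.90 to 1.28).

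**Figure D2:**
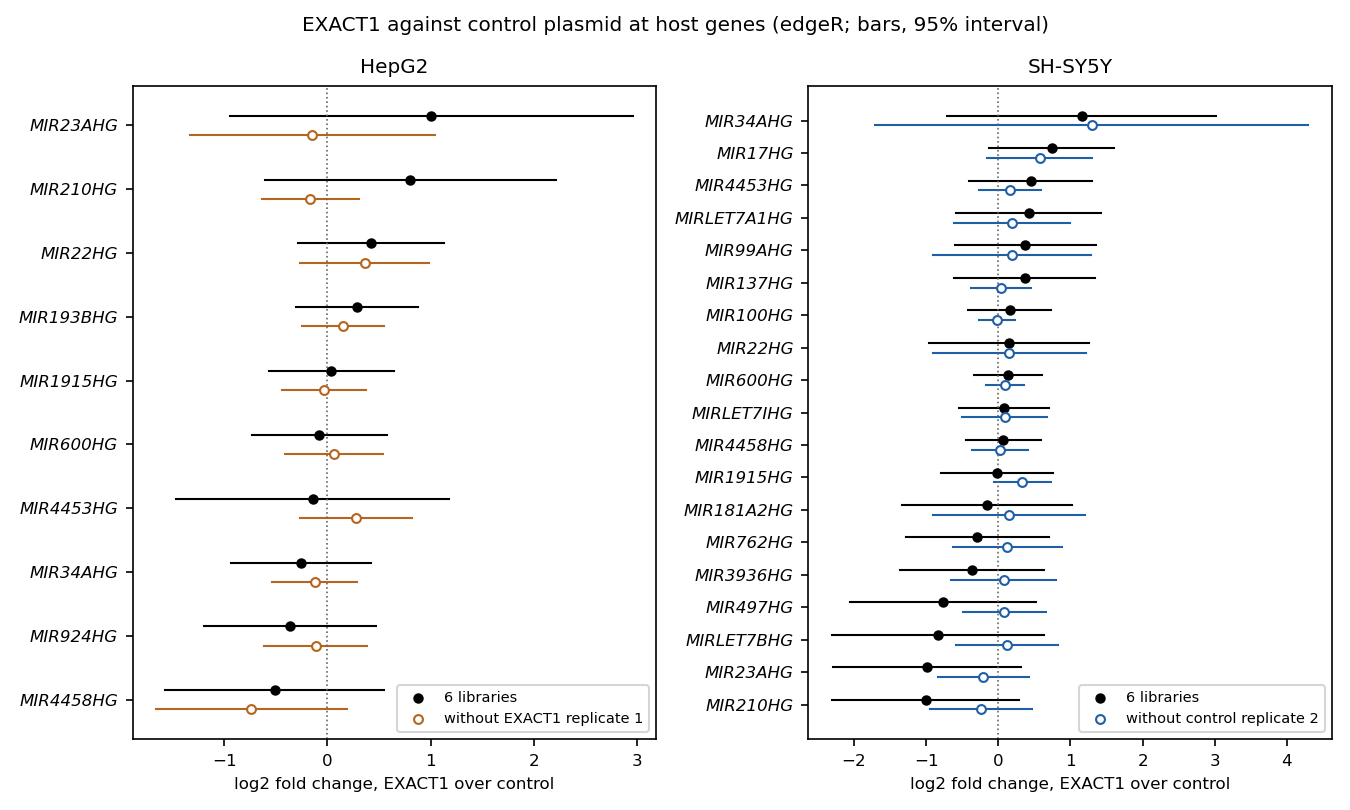
Log2 fold change of EXACT1 over control at host genes with a mean of at least 1 CPM in HepG2 (left) and in SH-SY5Y (right), without MIR3142HG, whose HepG2 counts were all or none. Black points use 6 libraries and open points 5, without the library that stood apart; bars are 95% intervals from edgeR. The intervals cover 0 throughout, and MIR210HG and MIR23AHG move towards 0 when that library is left out.

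The difference of the EXACT1 effect between lines was tested in the 12-library fit. None of 34 hosts was called, as were 0% of the 22009 genes tested, and 1 host had an unadjusted p under 0.05, against 8.66% of all genes. DESeq2 and limma voom called 0 hosts too. That host was MIRLET7BHG (difference 7.75, SE 3.06, edgeR adjusted p = 0.487), whose HepG2 counts all came from EXACT1 replicate 1. Of the next 4 by p, MIR210HG (1.90, SE 0.90) and MIR23AHG (2.09, SE 1.10) had their high values in the libraries that stood apart. Without both libraries these became 0.07 (SE 0.40) and 0.07 (SE 0.73). MIR29B2CHG (-2.32, SE 1.09) and MIRLET7A1HG (-1.29, SE 0.66) were the others. Leaving out both libraries also gave 0 calls among 36 hosts, with 2 at an unadjusted p under 0.05, MIR4733HG (-6.23) and MIR137HG (4.41), whose HepG2 counts were few.

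Of the 2 libraries that stood apart, one carried EXACT1 in HepG2 and the other the control plasmid in SH-SY5Y. Each was set against the median of the other 5 libraries of its line, for hosts with a mean of at least 1 CPM. MIR23AHG was 3.96 times that median in HepG2 and 2.94 times in SH-SY5Y, and MIR210HG 2.71 and 2.57 times, above all other libraries of the line in each case. MIR4453HG was at 0.25 and 0.30 of the median and MIR600HG at 0.57 and 0.63, below all others. In SH-SY5Y the library also lay highest for MIRLET7BHG (2.42 times), MIR497HG (2.39), MIR3936HG (1.54) and MIR762HG (1.29). It also lay lowest for MIR137HG (0.28), MIRLET7A1HG (0.37), MIR99AHG (0.41), MIR17HG (0.46), MIR100HG (0.48), MIR4458HG (0.65) and MIRLET7IHG (0.73). In all, 2 hosts lay above and 4 below every other HepG2 library, with 5 within. In SH-SY5Y 6 lay above, 9 below and 4 within. Such values were common over the whole table: of all genes at a mean of at least 1 CPM, 35.2% lay above and 55.6% below every other HepG2 library, and 31.3% above and 57.4% below every other SH-SY5Y library. Nothing particular to the hosts is read from these counts. These libraries also had the high ribosomal protein shares given earlier, whose part in the pattern was not tested.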

How the data were processed

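The deposited table holds raw counts, whole numbers by Ensembl gene and library, for 18 libraries; none of the 60612 rows lacks a gene ID, and 42020 matched a symbol. The submitters' processing notes name StringTie, HISAT2, cutadapt, limma and edgeR and the build GRCh38, without versions or the step each served; no source used here gives the strand setting of the counting. Libraries were grouped by their titles, and only HepG2 and SH-SY5Y were used. The members, gene lists and tests were chosen with earlier results of these data known.

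CPM were computed on library totals. Tests used edgeR 4.0.16 in R 4.3.3 (filterByExpr, TMM, robust quasi-likelihood F test, two-sided, Benjamini-Hochberg over all genes tested, called under 0.05). EXACT1 was compared with control in the 6 libraries of each line alone. The script was tested on simulated data with 100 changed genes at each fold. Between the lines it recovered 9 of 100 at 2-fold and 51 of 100 at 4-fold. For EXACT1 against control it recovered 0 and 18 of 100 in HepG2, and 0 and 4 of 100 in SH-SY5Y. Alternatives were DESeq2 1.42.0, limma 3.58.1 voom with sample weights, other scalings and filters, a replicate block, one plasmid only and libraries left out; scaling to library totals was added after seeing the data. Depth was 66056962 to 77100150 counts per library.

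Named hosts were up to 10 per direction, called, not overlapping between lines and at a mean of at least 1 CPM, the 5 with the smallest p per plasmid comparison, and a fixed list of well-known hosts. Others were named after their values were seen. Positions came from GENCODE 29 and mature sequences from RefSeq.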

Additional observations from a re-analysis of the deposited data

How the results depend on the processing

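Host calls between the lines (9 higher in HepG2, 15 in SH-SY5Y) became 5 and 9 at a mean CPM of at least 1, which tests fewer genes. On library totals 25 were higher in SH-SY5Y. Calls higher in HepG2 were 3 with control libraries only and 4 with EXACT1 libraries only. Leaving out 1 library gave 8 to 9 and 15 to 21, the most without HepG2 EXACT1 replicate 1; without both outlying libraries they were 8 and 21. No log2 fold change of a named host between the lines reversed over the alternatives, at most 23 refits per host. Of the 408 values, each of 1 host in 1 refit, 392 kept their side of the threshold, 9 gained a call and 7 lost one. Most of these hosts were named for being called, not overlapping and having large folds in these same data. The tally therefore says little about hosts near the threshold. Over all genes, EXACT1 against control gave 10 calls with DESeq2 and 1 with limma voom in HepG2 (0 to 2 with 1 library left out, 2 without EXACT1 replicate 1), and 9 and 1 in SH-SY5Y (0 to 1, 1 without control replicate 2). The difference between lines gave 31 and 1, and 2 without both outlying libraries. No host was among them. Uncalled values changed sign for MIR210HG in HepG2 (-0.17 with voom, -0.165 to 1.14 with 1 library left out), MIR23AHG in HepG2 (-0.32 with voom, -0.14 to 1.49) and MIR4733HG in SH-SY5Y (0.10 with voom, -1.82 to 0.27). So did the differences of MIRLET7BHG (-0.12 without both libraries, which left it no HepG2 counts) and MIR23AHG (-0.028 with voom). At 5 CPM, 3 hosts were expressed in HepG2 and 8 in SH-SY5Y. The cause of these shifts was not tested. Deviations of same-numbered libraries correlated at r of -0.02 to 0.02 in HepG2 and at 0.21, 0.08 and 0.03 in SH-SY5Y, where numbers 1 and 2 lay above all different-number values (-0.13 to 0.04 in that line) and 3 did not; as not every pair passed 0.1, the numbers were not taken as pairs. A replicate block kept the host calls at 9 and 15 between the lines and at 0 in the other comparisons. At this depth 20 hosts gave no count, which allows up to about 0.04 CPM in a library.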
